A study of Homo sapiens with 4 samples.

Results

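The 5 genes described here, EEF2, EEF1A1, EEF1B2, EEF1D and EEF1G, encode the cytosolic translation elongation factors and were chosen by their GENCODE gene names from 62700 annotated genes. RNA contacts of PR100-FLAG, a poly(PR) dipeptide repeat protein of the kind made from the C9orf72 repeat expansion carrying a triple FLAG tag, were mapped by iiCLIP in 4 libraries of HEK293T cells. The cells, a human embryonic kidney line, were transiently transfected with a pcDNA5 plasmid, so PR100-FLAG was overexpressed, and 150 ng/ml doxycycline was given for 24 h before UV crosslinking at 160 mJ/cm2. All 4 libraries are of this 1 condition: in replicates 1 to 3 the FLAG immunoprecipitates were purified by SDS-PAGE and in replicate 4 with beads. Control and GA100 libraries are not part of what was analysed here, so no value below is a difference from control cells, and how far an event count follows the abundance of the RNA was not tested.

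Elongation factors carry the ribosome through the coding sequence. eEF1A, the product of EEF1A1, brings aminoacyl-tRNA to the ribosome, the eEF1B complex built from the products of EEF1B2, EEF1D and EEF1G reloads eEF1A with GTP, and eEF2 moves the ribosome along the mRNA by one codon. Their mRNAs are among the abundant housekeeping mRNAs of growing cells, and the genes EEF2 and EEF1B2 host snoRNAs in their introns. EEF1A1 in particular has left many processed pseudogenes, which are intronless copies of its mRNA, in the genome.

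The value used is the number of unique cDNAs whose first base lies just after a crosslinked position, here called a crosslinking event, on the strand of the gene. Library totals ranged from 125694 to 604816 events, and CPM is the usual counts-per-million scaling by that total. The totals of replicates 3 and 4, 125694 and 179636, were below the minimum of unique events that the study states for its PR100 samples. The reason was not tested. Mitochondrial events took from 1.30% to 6.52% of a library. Events per crosslinked position ranged from 1.15 in replicate 4 to 2.16 in replicate 3, whose random barcode was 5 nt long against 7 nt in the others. With 4 libraries the exact test, which flips the sign of each library's difference (two-sided), cannot go below p = 0.13, and with 3 not below 0.25, so no difference below could pass 0.05. The labels do not say that replicates came from separate cultures, and the p-values therefore measure only the spread between these libraries.

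EEF2 was the most crosslinked of the 5 genes, and EEF1A1 had the lowest total. The place of EEF1A1 depends on the snoRNAs inside EEF1B2: with events inside no other gene EEF1B2 had 30 pooled events (22.9 CPM on average) and EEF1A1 45 (32.0 CPM), while EEF1G had 0 because another annotated gene covers it. The genes together held 286, 846, 126 and 435 events in replicates 1 to 4, which is 1420 ± 706 CPM (SD, n = 4), and EEF2 gave 67.5% of the 1693 pooled events. EEF2 had 173, 610, 64 and 295 events, or 518, 1009, 509 and 1642 CPM. EEF1D followed with 70, 146, 49 and 79 events, or 210, 241, 390 and 440 CPM. These ranges of EEF2 and EEF1D did not overlap, and EEF2 was higher in 4 of 4 libraries.

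EEF1G and EEF1B2 could not be told apart in level. EEF1G had 12, 34, 8 and 26 events (75.1 ± 47.9 CPM, SD, n = 4) and EEF1B2 had 23, 30, 5 and 24 (73.0 ± 42.2 CPM), with EEF1G the higher in 3 of 4 libraries. EEF1D was above EEF1G in 4 of 4 libraries with no overlap of their ranges. EEF1A1 had 8, 26, 0 and 11 events, 32.0 ± 26.2 CPM, and the count of 0 in replicate 3 allows up to 23.9 CPM at that depth. EEF1B2 was above EEF1A1 in 4 of 4 libraries, although their CPM ranges overlapped.

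Of the 5 genes 2, EEF2 and EEF1D, reached 200 pooled events, as did 2.62% of the 29263 genes with at least 1 event. The study required this count of a highly bound mRNA together with low binding in its controls, and that second condition was not applied here. Without replicate 2, only EEF2 reached the count. By pooled events EEF2 was number 12 of all genes and number 5 of the protein-coding ones, EEF1D number 219 of all genes, and EEF1A1 number 6037. CPM in the beads library exceeded that of every SDS-PAGE library for 4 of the 4 members with 50 or more pooled events, while 31.2% of all genes with that many events showed this order. Purification and replicate cannot be told apart here, since a single library was purified with beads.

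EEF2 lies on chromosome 19 of GRCh38 at 3976056-3985463, minus strand, and its canonical transcript has 15 exons and 3158 nt. Its events lay on the mature mRNA: 1036 of 1142 fell in the canonical exons, and the coding sequence alone took 68.2%, 79.8%, 56.2% and 78.6% in replicates 1 to 4. Pooled, the coding sequence held 76.4% of the events (95% Wilson interval 73.9 to 78.8, counting error only), the 3′ UTR 11.9%, the 5′ UTR 2.36%, introns 6.48% and the embedded snoRNA 2.10%. Replicate 3 was the library with the lowest coding share and with the highest shares in the 5′ UTR (15.6%) and the 3′ UTR (28.1%). Its 64 events stood at 12 positions, against 115, 304 and 256 positions in replicates 1, 2 and 4.

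Per length, EEF2 carried 328 exonic events per kb, which ranked number 7 among 16880 protein-coding genes with events. Its other-strand count was 12 events, 1.04% of both strands. No exon of EEF2 was empty: exon densities ran from 226 events per kb in exon 4 to 553 in exon 7, with a median of 347. Replicates 1, 2 and 4 had events in each of the 15 exons and replicate 3 in 7. Exon 7 was the densest in replicates 1 and 2, exon 11 in replicate 4 and exon 1 in replicate 3. Across the exons the pairs of libraries gave Spearman rho values from -0.29 for replicates 2 and 3 to 0.47 for replicates 1 and 2 (n = 15 exons of 1 gene, a description only). Of the 591 crosslinked EEF2 positions, 89 were seen in 2 or more libraries and 0 in all 4.

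The authors' list of significant clusters, called on the 4 libraries pooled, held 29 clusters in EEF2, 24 of them with their highest position in the coding sequence, 3 in the 3′ UTR and 1 each in the 5′ UTR and an intron. The intronic cluster overlapped the embedded snoRNA SNORD37, with its highest position just before the first base of the snoRNA. The 29 clusters contained 637 of the 1142 events. Called in single libraries, EEF2 had 4, 16, 3 and 7 clusters in replicates 1 to 4. Of the 29 pooled clusters, 9 overlapped a cluster of 2 or more single libraries. The largest, in exon 7, held 61 cDNAs, of which 17, 31, 0 and 13 came from replicates 1 to 4. The next, in exon 8, held 48 with 9, 30, 0 and 9. Neither had an event in replicate 3. The single EEF2 exonic position with the most events, in the 3′ UTR, had 0, 4, 12 and 0 events and so rested mainly on replicate 3.

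The first 30 bases of the cDNAs at these 3 EEF2 positions are shown because they are the RNA that the reads came from. They were read 5′ to 3′ from GRCh38 on the minus strand of chromosome 19, with any GANGA motif (N being A, C or G, searched on the transcript strand) in capitals. The exon 7 stretch at chr19:3981408-3981437 contains a GAGGA within an A-rich sequence, and the exon 8 stretch at chr19:3980901-3980930 and the 3′ UTR stretch at chr19:3976429-3976458 contain no GANGA.
EEF2 exon 7: atgaatttcaagaaaGAGGAgacagcaaaa
EEF2 exon 8: tcaccatccacctgccctcccctgtgacgg
EEF2 3′ UTR: cacagcgacgctcccctgagaggtttctgg
Of all 30-nt windows of the spliced EEF2 transcript, 15.7% hold a GANGA.

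Whether GANGA motifs, a sequence class whose place among crosslinks the study examined, lay near EEF2 events depended on the window. The first base of a GANGA motif lay in the window from 5 nt before to 30 nt after the crosslinked position for 29.5%, 23.1%, 14.1% and 21.6% of exonic EEF2 events in replicates 1 to 4, and for 21.3% of all exonic positions. The mean difference was 0.78 percentage points (SD 6.32, n = 4, exact sign-flip permutation p = 0.625), above 0 in 3 of 4 libraries, which is within the spread between libraries. With 30 nt on either side of the position the difference was 4.28 points (SD 2.28, n = 4), above 0 in 4 of 4 libraries (exact sign-flip permutation p = 0.13, the smallest possible). With GAAGA alone in the first of these windows, the difference was -0.92 points (SD 3.70, n = 4). The transcript has 22 GANGA motifs, and 239 of its 1036 exonic events lay near one in that first window. For the 5 genes together, 275 of 1200 exonic events were near a motif and the difference was 0.04 points (SD 7.41, p = 1, exact sign-flip permutation test), with each gene's own share of positions as the reference, and 3.98 points (SD 4.78, p = 0.25, same exact test) with 30 nt on either side. In the window from 5 nt before to 30 nt after, leaving out 1 library gave from -2.71 to 3.29 points for the 5 genes. It was below 0 without replicate 1, 2 or 4. Of the 28 exonic EEF2 clusters, 7 had a motif in this window at their highest position. EEF1D, with 23 motifs, had 27.3% of its pooled exonic events near one against 25.6% of positions, but a mean difference over libraries of -0.80 points (SD 18.2), above 0 in 2 of 4. EEF1G, with 15 motifs, had 22.0% against 27.6%. EEF1A1 had 4 motifs in its 3512 nt, and 0 of its 22 exonic events lay near one, against 3.36% of positions.

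EEF1A1 (chromosome 6, 73489308-73525587, minus strand) had events on few parts of its mRNA. Of its 45 events, 19 lay in the coding sequence, with 0, 9, 0 and 10 in replicates 1 to 4, and 3 in the 5′ UTR. Another 15 lay in exons of other transcripts and 8 in introns, and 18 of the 45 lay outside the span of the canonical transcript, since the annotated gene reaches far upstream of it. No pooled or single-library cluster was listed in EEF1A1. Its 3′ UTR of 2060 nt held 0 events in every library, which allows at most 1.46 events per kb pooled, whereas the EEF2 3′ UTR held 273 per kb, with 25, 65, 18 and 28 events.

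Reads that match several places were dropped by the authors, and this bears on each of these genes differently. Windows of 35 nt from the spliced canonical transcripts were looked up in 194 genome sequences on both strands and in the 5 spliced transcripts. Every EEF2 window was found once. For EEF1D 83.2% of windows were found once, for EEF1A1 48.8%, for EEF1B2 22.1% and for EEF1G 19.8%. In EEF1A1 the repeated part was the coding sequence, in which 2.74% of windows were found once, whereas 82.0% of the windows in its 3′ UTR were. Its empty 3′ UTR thus includes 1660 uniquely placeable positions, and the 463 such positions of the EEF2 3′ UTR held 136 events. The EEF1A1 pseudogene closest in sequence (99.7% identity) matched over 1747 nt, against 3512 nt in the canonical transcript. How much of the annotated 3′ UTR these cells make was not tested, so its empty count is not read as a lack of contact. Of the 22 exonic EEF1A1 events, 1 stood at a window found once and 21 at windows with another exact copy within the first 35 nt, so their placement rests on longer reads or on the authors' rules, and the read lengths are not in the event lists.

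The annotation named 73 pseudogenes after these genes, 49 of EEF1A1, 8 each of EEF1B2, EEF1D and EEF1G, and 0 of EEF2. They held 8, 27, 8 and 4 events in replicates 1 to 4, or 0.39 events per kb against 109 per kb on the exons of the 5 genes, a mean of 4.91% of the pseudogene and exonic counts together (SD 3.56, n = 4). Of these 47 events, 22 lay inside no other gene, and with them alone the mean was 1.54%, an alternative chosen after seeing the data. EEF2, with 0 named pseudogenes, gave 1036 of the 1200 exonic events, so the density contrast and both means rest mainly on it. For EEF1A1 alone the densities were 0.39 events per kb on pseudogenes and 6.26 on exons. EEF1A1 was the exception: 38 events lay on its pseudogenes and 22 on its own exons, so the pseudogenes took 88.9%, 65.5%, 100% and 21.4% of the sum in replicates 1 to 4. Only EEF1A1P30 reached 10 pooled events (1, 7, 2 and 0), and each of these 10 also lay inside NKAPP1 or RHOXF1 on the same strand. Of the 38 events, 15 lay in no other gene. Events of mRNA origin that were dropped for matching several places cannot be counted from these lists.

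The EEF1A1 exonic position with the most events shows the difficulty. It lies in exon 6, had 0, 5, 0 and 0 events in replicates 1 to 4, and the 35 nt that follow it have 7 further exact copies. Its first 30 bases, at chr6:73518362-73518391 on the minus strand, hold no GANGA, and no base is in capitals.
EEF1A1 exon 6: atgacccaccaatggaagcagctggcttca

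In EEF1B2 (chromosome 2, 206159585-206162928, plus strand) the snoRNAs, and not the mRNA, held most of the listed events. Only 16.1% of its 35-nt coding windows were found once, and mRNA events dropped for matching several places cannot be counted. The snoRNA share is therefore a share of placeable events. Of its 82 events, 51 lay in intronic snoRNA genes, 62.2% (95% Wilson interval 51.4 to 71.9), with 15, 16, 5 and 15 in replicates 1 to 4. The snoRNA genes make up 7.45% of the gene's length. The coding sequence held 14 events, with 4, 6, 0 and 4, and the canonical introns outside snoRNAs and other exons 5. SNORD51 and the annotated snoZ196, which overlap in intron 3 and cannot be separated, held 34 events, 9, 11, 5 and 9, and the rest of the intron 1. SNORA41, an H/ACA snoRNA in intron 4 that by its class guides pseudouridylation, held 17, with 6, 5, 0 and 6. Both pooled EEF1B2 clusters lay at these snoRNAs, with 34 and 13 cDNAs. All 5 events of replicate 3 were in the first, at 1 position.

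SNORD37, a box C/D snoRNA in intron 4 of EEF2 of the class that guides 2′-O-methylation, held 24 events, 3, 11, 0 and 10 in replicates 1 to 4, or 364 per kb against 57.0 per kb in the rest of the intron. The rest of the intron held 18 events, and 11 of these, 0, 7, 0 and 4, stood at the nucleotide just before the first base of SNORD37. By the way positions are set, such an event is a cDNA that starts at the first base of the snoRNA. The 57.0 per kb therefore also counts cDNAs of the snoRNA. For SNORA41 2 events stood at that place, and for SNORD51 0. The bases after the highest positions of the box C/D snoRNAs are shown with the box C letters TGATGA in capitals. Of all 30-nt windows on the gene strand of the 5 genes, 1.03% hold TGATGA. That share is no reference for these stretches, because box C/D snoRNAs carry box C by definition. No motif preference is read from them. The stretches are chr19:3982543-3982572, minus strand, and chr2:206161881-206161910, plus strand, and the first base of the SNORD37 stretch is the first base of the annotated snoRNA.
SNORD37: attcgTGATGActgatcatttcttcacttt
SNORD51: gttgcaTGATGAataaaatcaaatcaccat

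EEF1G (chromosome 11, 62559596-62574086, minus strand) had 50 of 80 events in its coding sequence, but the split between coding sequence and intron differed between libraries. Coding events numbered 1, 26, 1 and 22 and intronic events 9, 8, 7 and 3, so replicates 2 and 4 had 76.5% and 84.6% coding and replicates 1 and 3 had 8.33% and 12.5%. The high coding shares thus came from 1 SDS-PAGE library and from the beads library. Its 2 largest pooled clusters lay in exons 6 and 7 with 13 and 12 cDNAs, of which replicate 2 gave 9 and 7. No event was seen in its UTRs or over MIR6747, a microRNA gene in intron 6. Each event also lies inside ENSG00000255508, an annotated protein-coding gene that spans all but the end of EEF1G on the same strand, and the counts cannot tell them apart. Windows found once make up 19.8% of the transcript and held 35 of its 50 exonic events, 125 events per kb against 13.3 at repeated windows.

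EEF1D (chromosome 8, 143579697-143599541, minus strand) had a larger share of its events in introns than EEF2. Of 344 events, 162 lay in introns, with 36, 70, 27 and 29 in replicates 1 to 4, 105 in exons of other transcripts and 77 in the canonical transcript, whose long exon 3 encodes the N-terminal extension of the longer eEF1D protein. Introns thus took 51.4%, 47.9%, 55.1% and 36.7%, lowest in the beads library. They make up 52.7% of the length of the gene. Pooled, introns held 13.8 events per kb in EEF2 and 15.5 in EEF1D, and canonical exons 328 and 36.8. The genes thus differed in exon density and little in intron density. Exon 3 held 35 of the 77 canonical exonic events in 1091 nt and exon 4 held 14 in 124 nt, which made exon 4 the densest at 113 events per kb. The first canonical intron span, which also holds exons of other transcripts, had 108 events, 25, 43, 15 and 25. The 2 largest clusters, in exons 4 and 9, held 14 and 13 cDNAs, with 4, 7, 0 and 3 and with 3, 0, 8 and 2 from replicates 1 to 4, so each lacked events in 1 library.

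Across the family, exons were more densely crosslinked than introns. The 5 genes together had 1200 exonic events in 11014 nt and 276 intronic events in 55185 nt, snoRNA genes and exons of other transcripts left out, and the log2 ratio of the densities was 3.63, 4.68, 3.44 and 4.97 in replicates 1 to 4. Its mean was 4.18 (SD 0.76), an 18.1-fold ratio, positive in 4 of 4 libraries (exact sign-flip permutation p = 0.13, the smallest possible). EEF2 gave a mean of 5.18 (SD 1.80), with 146, 562, 64 and 264 exonic and 20, 37, 0 and 17 intronic events. Replicate 3, with 0 intronic events, had the highest ratio, 7.77, which the pseudocount sets, and without it the mean was 4.31. In EEF1D the ratio was far smaller, 1.24 (SD 0.59), or 2.36-fold, also positive in 4 of 4. With the exons of all transcripts it was 0.29 (SD 0.46, exact sign-flip permutation p = 0.375) and no longer of 1 sign in the 4 libraries. Without EEF2, chosen as a check after its share had been seen, the family mean fell to 2.07. EEF2 gave 1036 of the 1200 exonic events, while EEF1A1 gave 26217 of the 55185 intronic nt, so the family ratio mixes genes. With introns of the canonical transcripts only, 265 events in 27429 nt, the family mean was 3.21 (SD 0.80). That choice was also made after seeing the data.

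The ratios of the other genes rest on few events. EEF1G gave 0.37, 4.68, 0.71 and 5.72, highest again in replicates 2 and 4. EEF1B2 gave 1.55, 4.40 and 1.35 in replicates 1, 2 and 4. Counting its snoRNAs as intron turned its mean to -1.18. EEF1A1 gave 4.49, 3.20 and 7.42 in these replicates, of which only replicate 2 had intronic events, 8 in number, and these lay outside the canonical transcript. Inside it 87 nt were intron in every transcript and held 0 events, too little for a ratio. For EEF1B2 and EEF1A1 replicate 3 had no event in either region and was left out.

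**Figure D1:**
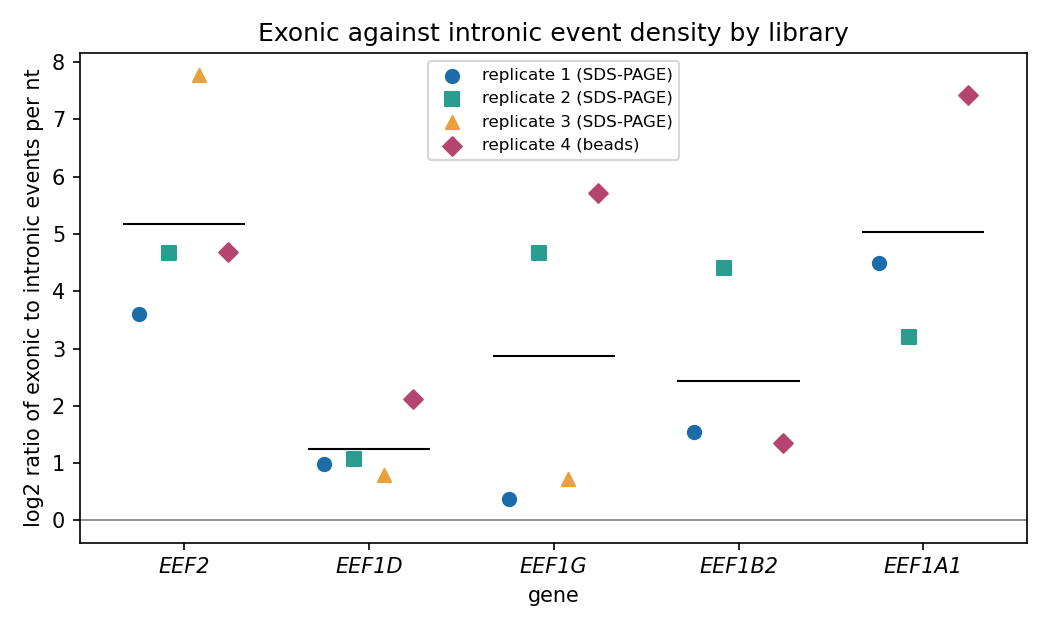
Log2 ratio of exonic to intronic events per nt for each gene, 1 point per library and a line at the mean; the grey line marks equal density. The EEF1D points lie between 0.79 and 2.11 and all points are above 0. Replicate 3 has no point for EEF1B2 and EEF1A1.

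Within the mRNA, EEF2 showed no difference between coding sequence and 3′ UTR beyond the spread between libraries. The coding sequence had 118, 487, 36 and 232 events in 2577 nt and the 3′ UTR 25, 65, 18 and 28 in 498 nt. The log2 density ratio was -0.16, 0.52, -1.39 and 0.66, with a mean of -0.09 (SD 0.94, exact sign-flip permutation p = 0.875), and without replicate 3 it was 0.34. For the 5 genes together the mean was 1.02 (SD 0.90, p = 0.25, same permutation test), positive in 3 of 4 libraries. It was 2.45 with all transcripts and 1.39 with uniquely placeable sequence, each positive in 4 of 4 (exact sign-flip permutation p = 0.13). Without EEF2, a check chosen after seeing the data, it was 4.11. The 3′ UTR events left in that check are the 2 of EEF1D, both in replicate 2. In the other libraries the pseudocount and the 3′ UTR length set the value, so no direction is read from it. Of the 2750 nt of 3′ UTR in the sum over the 5 genes, 2060 belong to EEF1A1 and have 0 events. The 3′ UTRs of EEF1B2, EEF1D and EEF1G are 45, 64 and 83 nt long and held 0, 2 and 0 events, too few for a ratio.

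The genes most like these are those of ribosomal proteins and initiation factors. In the canonical exons lay 58.0%, 74.8%, 58.7% and 75.2% of the events of the 5 genes in replicates 1 to 4, against 44.2%, 54.8%, 46.9% and 50.1% over 86 cytosolic ribosomal protein genes. The elongation factor share was higher by 17.7 percentage points (SD 6.01), in 4 of 4 libraries (exact sign-flip permutation p = 0.13, adjusted over 2 comparisons p = 0.13). When all transcripts of each gene were used, the difference was -7.88 points, and with events inside no other gene -0.72. Against 45 EIF initiation factor genes, whose shares were 45.3%, 63.9%, 54.1% and 66.5%, the difference was 9.26 points (SD 3.52), in 4 of 4 libraries (exact sign-flip permutation p = 0.13, adjusted p = 0.13). With all transcripts this difference was 3.69 points (SD 8.43, p = 0.5, same exact test) and with events inside no other gene 5.98 (SD 7.34, p = 0.25), neither of 1 sign in the 4 libraries. Both differences rest on EEF2: the other 4 genes had 27.2% ± 13.4 (SD, n = 4) of their events in canonical exons, a difference of -21.8 points from the ribosomal protein genes and of -30.2 from the initiation factor genes, in a check chosen after seeing the data.

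By exonic events per kb, EEF2 exceeded 85 of the 86 ribosomal protein genes and 45 of the 45 initiation factor genes. EEF1D, at 36.8 events per kb, and EEF1G, at 34.6, were above the medians of both lists, which were 21.0 and 10.5. EEF1B2, at 18.6, lay between these medians. EEF1A1, at 6.26, was below both. These densities are not corrected for dropped reads. At 35 nt, windows found once made up 100% of EEF2, 83.2% of EEF1D, 48.8% of EEF1A1, 22.1% of EEF1B2 and 19.8% of EEF1G. For the 2 lists that share was not computed, which limits these ranks and the exonic shares above. The EEF1A1 density also counts its whole annotated 3′ UTR.

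Other genes of elongation and its partners, 29 in a fixed list that covers the selenocysteine factor, the eIF5A genes, diphthamide synthesis, mitochondrial factors and ribosome release, had a median of 35 pooled events, against 23 over protein-coding genes with events. The highest exonic density was 35.6 events per kb, against 328 in EEF2, and 2 of 29 genes reached 200 events. These were HBS1L, a GTPase of ribosome rescue, with 54, 125, 2 and 42 events, and EEFSEC, the selenocysteine elongation factor, with 73, 95, 7 and 31. HBS1L had 51.1% of its events in canonical exons and EEFSEC 9.71%. GSPT1, the release factor eRF3a, had 143 pooled events, EEF1A2, the tissue-restricted paralogue of EEF1A1, 108, and VARS1, the valyl-tRNA synthetase that joins the eEF1 complex, 96. EEF1A2 carried 28.8 exonic events per kb against the 6.26 of EEF1A1, with the limit on EEF1A1 coding reads given above.

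The protein-coding genes whose levels over the 4 libraries were nearest to EEF2, in Euclidean distance of log2(CPM + 1) among 2406 genes with 100 or more pooled events, were HSP90AA1 at 0.58, SRRM2 at 0.74 and PRRC2A at 0.83. HSP90AA1, which encodes a cytosolic chaperone, had 509, 751, 493 and 2154 CPM, with the libraries in the same order as for EEF2. Exons held 93.6% of its events, and 90.7% of those of EEF2. The nearest to EEF1D were CACNA1H at 0.17, SMARCA4 at 0.34 and LARP1 at 0.39, with 33.9%, 59.8% and 72.1% of events in canonical exons against 22.4% in EEF1D.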

How the data were processed

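Per the labels and the study's methods, the authors demultiplexed iiCLIP reads on iMaps, collapsed PCR duplicates by random barcodes, mapped with STAR to GRCh38 with Gencode 27 allowing 2 mismatches, kept uniquely mapping reads and took the preceding nucleotide as the crosslinked position; the STAR version is not given in the sources used here. The deposited values are unnormalised counts, the number of unique cDNAs at each stranded position, for each library and pooled; the authors' clusters came from iCount at a false discovery rate below 0.05 and carry summed counts. The pooled list was checked to equal the sum of the libraries.

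Events were placed on the GENCODE 44 annotation, later than the authors' own. An event counts for every gene spanning it on its strand. Regions came from the Ensembl canonical transcript, snoRNA genes first; the stop codon counts as coding. Log2 density ratios used a pseudocount of 0.5, and libraries with no event in either region were left out. Ratios and shares were tested over the 4 libraries by an exact permutation test that flips the signs of the library differences, two-sided, and the comparisons with 2 gene lists were Benjamini-Hochberg adjusted. Intervals are 95% Wilson intervals, and a count of 0 allows 3 counts; both cover counting error only. Window copies were exact matches in the hg38 reference without alternative sequences. Pseudogenes were found by name and, as an alternative, with blastn 2.17.0 (200 nt, 80% identity). The counting, copy search and test were tested on simulated data. Python 3.11.15, numpy 2.4.6, pandas 2.3.3 and scipy 1.17.1 were used.

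The 5 genes and all lists were chosen with earlier results of these data known. Named beside the 5 genes were snoRNA genes inside them, pseudogenes with 10 or more events, the 5 listed elongation genes with the most events, the 3 nearest genes by level and the 2 largest clusters of each gene; the EEF2 3′ UTR position, MIR6747, the readthrough gene and the third-ranked and later clusters counted in sums were named after their values were seen. Alternatives left out each library, counted each position once, changed transcript model, gene assignment, library total, pseudocount, motif and window, or used only uniquely placeable sequence.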

Additional observations from a re-analysis of the deposited data

Results flagged for a closer look

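Of 18 values tested over the 4 libraries, 2 had a library far from the other 3. Chance flags about 1 in 20. The percent of EEF1B2 events in canonical exons was 0 in replicate 3, against 17.4, 20 and 20.8 in replicates 1, 2 and 4. Replicate 3 had 5 EEF1B2 events, all at 1 position in the SNORD51 locus. The percent of EEF1D events in canonical exons was 31.6 in replicate 4, the beads library, against 20, 19.9 and 18.4 in replicates 1 to 3. In the same library the intronic share of EEF1D was lowest, at 36.7%, and a single beads library cannot be told apart from 1 replicate.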

How the results depend on the processing

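The exon against intron ratio of the 5 genes kept its sign in the 11 alternatives run, from 2.07 without EEF2 to 4.78 with uniquely placeable sequence, and from 3.92 to 4.43 without 1 library. It turned for EEF1B2 with snoRNA as intron (-1.18). The EEF1A1 value against canonical introns only (-1.83) has 0 events in 87 nt on the intron side, so the pseudocount sets its sign. For EEF1D all transcripts gave 0.29, and for EEF2 a pseudocount of 0.1 gave 5.77. The coding against 3′ UTR ratios of EEF1B2, EEF1D and EEF1G have 0 to 2 events in the 3′ UTR, so the pseudocount sets them and no direction is read: a pseudocount of 0.1 gave 1.64, 1.40 and 1.70, and all transcripts 0.078 for EEF1B2 and 0.63 for EEF1D. Without 1 library it ran from -0.34 to 0.34 for EEF2, from -0.74 to 0.0013 for EEF1D and from -1.10 to 0.28 for EEF1G.

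The GANGA difference, in percentage points, ran without 1 library from -2.71 to 3.29 for the 5 genes, from -1.68 to 3.45 for EEF2 and from -6.84 to 7.45 for EEF1D. With GAAGA alone it was -1.49 for the 5 genes, -0.92 for EEF2 and 5.69 for EEF1B2. Counting each position once gave 0.10 for EEF1B2 and 1.29 for EEF1D, a window of 30 nt on either side 3.98 for the 5 genes, 4.28 for EEF2, 13.7 for EEF1B2, 2.16 for EEF1D and 10.3 for EEF1G, and uniquely placeable sequence 0.0081 for EEF1D.

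The exonic share difference from ribosomal protein genes was -7.88 points with all transcripts, -0.72 with events inside no other gene and -21.8 without EEF2, and from initiation factor genes 3.69, 5.98 and -30.2. Mean CPM was 0 for EEF1A1 and 44.5 for EEF1D inside pooled clusters, and 22.9 for EEF1B2 and 0 for EEF1G with events inside no other gene. Pseudogenes took 11.7% by blastn matches, which include a repeat in the EEF1A1 3′ UTR, and 1.54% with events in no other gene. Genes with 200 events numbered from 1 to 2 without 1 library, and 1 gene passed a minimum of double that. At a minimum of 100 events, 2 members were tested in the beads library and both were highest there. With windows of 25, 50 and 75 nt, the percent found once was 45.5, 52.7 and 56.1 in EEF1A1, 14.3, 31.0 and 48.3 in EEF1B2, 73.4, 93.7 and 99.9 in EEF1D, and 13.1, 28.9 and 38.5 in EEF1G. Beyond the alternatives named here, no cause of these changes was tested.

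Of 322 alternative values, 254 kept the direction of a test, or stayed within the spread between libraries or within 1.5 times a count, 39 moved further and 29 changed sign. The choices without EEF2, canonical introns only, blastn matches reaching the coding sequence and pseudogene events in no other gene were added after seeing the data. Replicate numbers pair no samples between groups, because all libraries belong to 1 group. The tests compared regions, positions or gene lists within each library. Depth limits EEF1A1, EEF1B2 and EEF1G most, with 45, 82 and 80 pooled events, and replicate 3 throughout.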
